A study of Homo sapiens with 12 samples.

Results

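Messages of most expressed ZNF genes, human genes named for the zinc fingers of their proteins, fell within hours of CDK9 inhibition in both lymphoma lines examined. The genes described are the 238 protein-coding genes whose symbol is ZNF followed by a number, with or without a final letter, and whose mean count at 0 h, per 1000000 counted reads (CPM), was at least 5 in both lines. They were thus selected on a measured value, the untreated level. They come from 510 protein-coding genes with such symbols in a table of 58233 genes. Of the other 272, 47 passed this floor in VAL alone, 22 in OCI-LY3 alone, and 23 had no count in any library. This floor favours genes that are high at 0 h. For that reason the members are set throughout beside the 8241 protein-coding genes that passed the same floor. Just outside the floor lay ZNF627 (5.71 CPM in VAL and 4.78 in OCI-LY3), ZNF420 (4.93 and 6.45) and ZNF57 (4.94 and 5.94). Just inside lay ZNF813 (5.01 and 16.7), ZNF567 (5.02 and 6.09) and ZNF780A (6.72 and 5.14).

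Poly(A)+ RNA was sequenced without strand information from the human lines OCI-LY3 and VAL, both grown from lymphomas of the diffuse large B-cell type. Cells of each line were collected untreated at 0 h, or 3 h or 6 h after addition of 300 nM AZ5576, a selective inhibitor of the kinase CDK9. The labels call the 0 h cells untreated, whereas the series text speaks of vehicle, so whether they had vehicle is not known. Each of the 6 groups held 2 libraries, 12 in all. Nothing in the labels says that libraries of a group came from separate cultures, so p-values cover only the spread between the sequenced libraries, which may be technical. No untreated cells of 3 h or 6 h were among the samples, so time in culture and treatment cannot be told apart. In bulk RNA, fewer cells with a message and less of it per cell cannot be told apart either.

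Zinc-finger proteins of the Cys2-His2 type bind DNA, and sometimes RNA or protein, through repeated finger modules. They make up the biggest family of human transcription factors, and many of their genes lie in clusters on chromosome 19. A large subfamily carries a KRAB domain, which recruits the co-repressor TRIM28 and, through it, the histone methyltransferase SETDB1 to silence transposable elements and other targets. Others carry a SCAN domain, through which these proteins pair, and a smaller number serve as activators, ribosome factors or parts of chromatin complexes. CDK9, together with a cyclin T, phosphorylates paused RNA polymerase II and its pausing factors so that transcripts can be elongated. When it is blocked, messages with short lives drop first.

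Total counts ranged from 23175082 to 39715536 per library. The lowest-count member had 145 to 191 counts in the untreated libraries and 6 to 10 in the treated ones, and the median member had 128 to 212 counts in treated libraries. The B-cell markers CD22, CD79A, CD79B, MS4A1 and PAX5 summed to between 2034 and 3437 CPM in all libraries, while the T-cell list summed to 2.07 to 6.49 CPM with CD2 at 0 in all but 1 library. Of the epithelial and stromal list, COL1A1 alone reached 32.1 to 90.9 CPM in OCI-LY3, higher in its treated libraries, with EPCAM at 0 there. The myeloid list summed to 0.317 to 0.908 CPM at 0 h and to 8.34 to 14.2 CPM at 6 h, with MPO at 0 in the 0 h libraries and at up to 10.9 CPM at 6 h. The part of either list in the results was not tested. Replicate libraries of a group differed by more than sampling noise, by a chi-square, divided by its degrees of freedom, of 1.66 to 63.8, the highest in VAL at 3 h and 6 h. Levels below are scaled CPM, counts per 1000000 of the library size after TMM scaling, and changes are log2 ratios ± standard error with adjusted p from edgeR's quasi-likelihood test over 16374 genes. Mitochondrially encoded mRNAs took 1.85 ± 0.145% of counts in untreated VAL, then 3.92 ± 1.07% after 3 h and 6.03 ± 1.24% after 6 h. In OCI-LY3 they took 2.31 ± 0.0865%, then 4.51 ± 1.04% and 5.26 ± 0.170% (SD, n = 2). RNA-seq without added standards gives each message relative to the others. Scaled instead so that mitochondrially encoded mRNAs stay level, the median change of all 16374 genes moves from 0.17, 0.10, 0.00 and -0.01 to -1.23, -2.06, -1.09 and -1.55 (VAL 3 h and 6 h, then OCI-LY3 3 h and 6 h). Scaling shifts all genes alike, so it hardly moves the distance of the members from all genes and is no test of it. The members' median minus that of all genes was -1.24 to -1.12 in VAL at 3 h and -1.16 to -1.06 at 6 h with each scaling or test tried. In OCI-LY3 it was -1.496 to -1.385 at 3 h and -1.51 to -1.35 at 6 h. With TMM, 8003 other protein-coding genes past the floor had medians of 0.02 at 3 h and -0.25 at 6 h in VAL. In OCI-LY3 these were -0.11 and -0.36. In each comparison they lay nearer to the members' median than the median of all genes did.

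The members share more than a name. By GENCODE release 29 (GRCh38), 95 of the 238 genes (39.9%) lay on chromosome 19, against 7.17% of the protein-coding genes past the floor, and chromosomes 7 and 16 held 21 each. Translated coding sequences of the annotation held a median of 10 Cys2-His2 fingers, with a range from 0 to 31 (ZNF91 and ZNF142). A KRAB pattern was found in 123 members, a SCAN pattern in 16, both in 6 and neither in 105. Their genes were slightly shorter than others, with a median span of 27084.5 bp against 33334 bp, and had a median of 5 exons against 10. The spans of 134 members, introns included, overlap a gene on the other strand. As the libraries carry no strand, reads from exons that overlap there cannot be told apart. How many of the 134 share exons in this way was not counted. For 28 members, 5% or more of the 100-base stretches of the transcript occur in another gene, with the highest shares for ZNF320 (99.5%) and ZNF747 (89.2%), so their counts are uncertain.

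Before treatment most members were expressed at low to moderate levels, as a description since the rule used these values. Per kilobase of transcript the median member had 3.71 scaled CPM in VAL and 4.36 in OCI-LY3. ZNF207, a kinetochore factor that loads the checkpoint protein BUB3, was highest in both lines with 134 ± 1.96 scaled CPM per kilobase in VAL and 130 ± 3.29 in OCI-LY3 (SD, n = 2). The lowest in VAL were ZNF26, ZNF175 and ZNF813, with 0.534 ± 0.0414, 0.636 ± 0.0041 and 0.658 ± 0.0177. Between the lines 212 of 238 members (89.1%) were within 2-fold, as were 83% of the other protein-coding genes past the floor, which the rule's floor in both lines favours. Most apart were ZNF275, with 7.24 scaled CPM in VAL and 33.1 in OCI-LY3, and ZNF354A, with 14.7 and 5.08. ZNF354A is among the 28 members with 5% or more shared 100-base stretches, so its counts are uncertain.

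The first comparison asked which members VAL had lost after 3 h of the inhibitor. Most of them fell, many to a fraction of the untreated level: 155 of 238 were lower (65.1%), 13 were higher (5.46%) and 70 did not pass. Over all genes tested, 25.1% were lower and 29.6% higher, and over the protein-coding genes past the same floor 34.8% and 30.8%. The median member changed by -1.04, which leaves 48.6% of the 0 h level, and 122 were at least 2-fold lower. Both treated libraries lay below both untreated ones for 181 members, and above for 27, against 33.9% below and 42.5% above of all genes and 42.3% and 40.2% of those past the floor. With the floor set on the mean of all 12 libraries instead, which does not favour high levels at 0 h, 118 of 206 genes were lower (57.3%). The 186 tested ZNF genes below the floor had 84 lower and 18 higher.

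**Figure D1:**
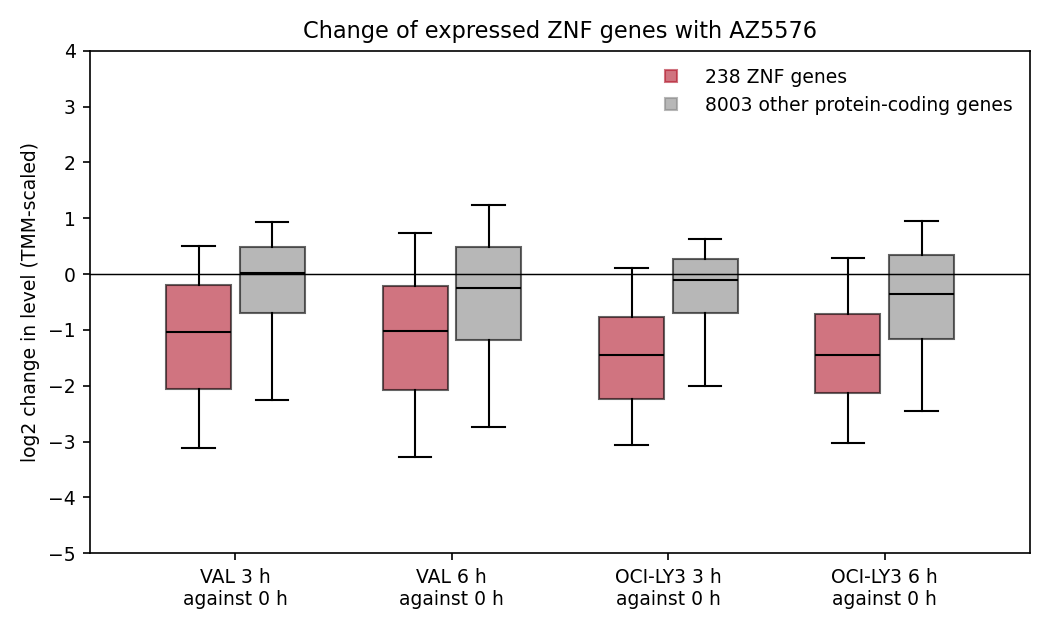
Log2 change (vertical axis) of the 238 ZNF genes (red) and of 8003 other protein-coding genes past the same floor (grey) in each comparison with 0 h. Boxes run from the lower to the upper quartile with the median as a line, and whiskers from the 5th to the 95th percentile. The red medians lie at -1.04, -1.03, -1.45 and -1.45, with TMM scaling, and the grey ones between 0.02 and -0.36.

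The deepest losses in VAL at 3 h were those of ZNF200, ZNF319, ZNF689 and ZNF14. ZNF200 had 14.5 and 15.3 untreated, 0.653 and 0.717 after 3 h, then 0.567 and 0.285 after 6 h scaled CPM in VAL. Its treated libraries lay far below both untreated ones, a change of -4.44 ± 0.20 (adjusted p = 9.1e-08) at 3 h, or 21.7-fold lower. ZNF14, a KRAB protein gene at chromosome 19, 19710471 to 19733097, had 6.95 and 6.95 untreated, 0.425 and 0.478 after 3 h, then 1.44 and 1.71 after 6 h. It changed by -3.94 ± 0.22 (adjusted p = 2.62e-07) at 3 h and stood higher again at 6 h in both libraries. ZNF319 changed by -3.94 ± 0.28 (adjusted p = 1.01e-06). ZNF689, another KRAB gene, had 20.6 and 19.9 scaled CPM untreated and 1.14 and 1.51 at 3 h, a change of -3.94 ± 0.19 (adjusted p = 1.24e-07).

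In OCI-LY3 the same question gave a wider loss. At 3 h 196 of 238 members were lower (82.4%), 6 were higher (2.52%) and 36 did not pass. All genes tested gave 24.3% lower and 17.8% higher, and the protein-coding genes past the floor 35.6% and 17.9%. The median change was -1.45, which leaves 36.7% of the 0 h level, and 156 members were at least 2-fold lower. Both treated libraries lay below both untreated ones for 215 members, and above for 12, against 39.5% and 37.6% of all genes and 51.9% and 36.8% of those past the floor. With the floor on the mean of all 12 libraries, 159 of 206 were lower (77.2%).

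ZNF441, a KRAB gene at chromosome 19, 11767000 to 11784078, fell furthest in OCI-LY3. Its libraries had 6.83 and 6.43 untreated, 0.365 and 0.35 after 3 h, then 0.346 and 0.396 after 6 h scaled CPM. The 4 treated libraries lay close together, all far below the untreated ones, and the change at 3 h was -4.20 ± 0.37 (adjusted p = 6.8e-06). ZNF14 had 6.37 and 6.52 untreated, 0.474 and 0.315 after 3 h, then 3.26 and 2.68 after 6 h, a change of -4.02 ± 0.22 (adjusted p = 4.2e-07) at 3 h. ZNF845, with a tandem of 26 fingers, changed by -3.70 ± 0.29 (adjusted p = 2.64e-06). ZNF217, a co-repressor subunit known as an amplified oncogene in breast cancer, had 40.6 and 38.1 untreated, 3.79 and 3.5 after 3 h, then 10.6 and 8.96 after 6 h scaled CPM. It was lowest at 3 h, -3.43 ± 0.28 (adjusted p = 3.76e-06), and about 10.8-fold under its untreated level.

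**Figure D2:**
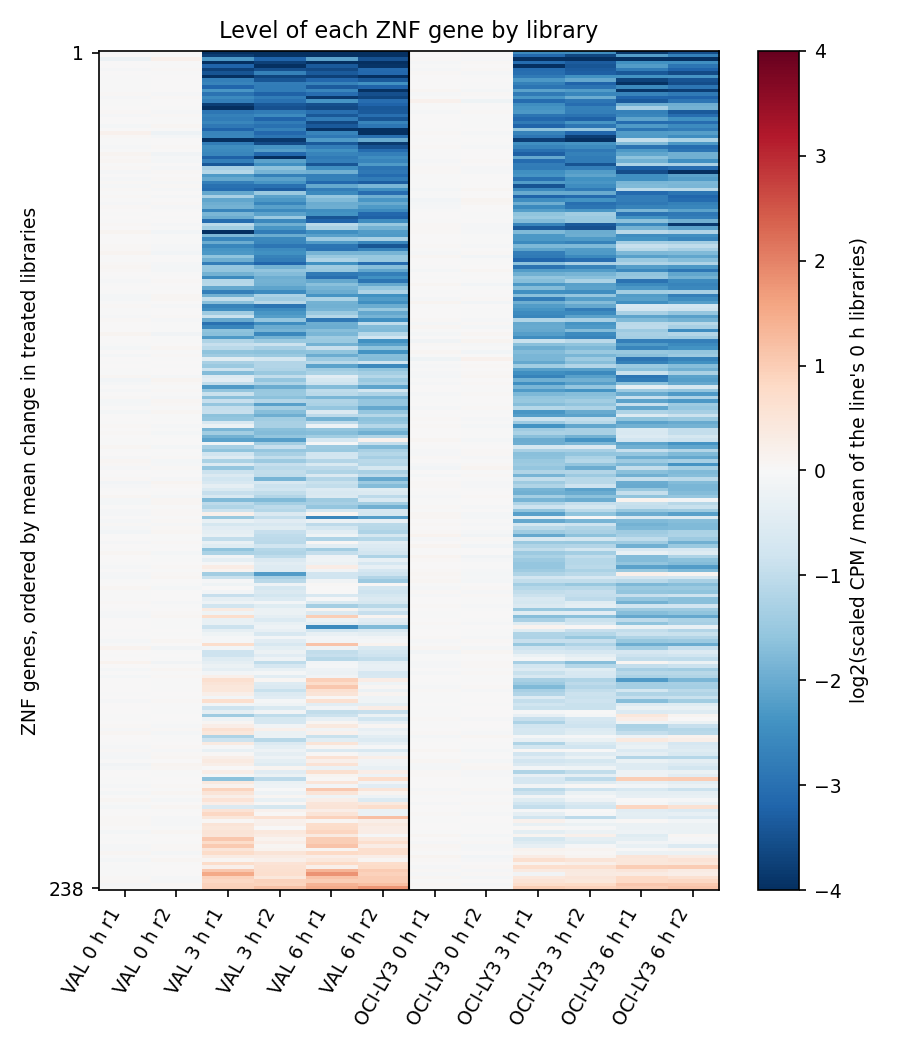
Each row is 1 of the 238 ZNF genes and each column 1 library, coloured by log2 of scaled CPM over the mean of the line's 0 h libraries, with colours saturated beyond -4 and 4. Rows are ordered by mean change in treated libraries, so the blue block shows the losses, and the few red rows at the bottom are genes higher with TMM scaling.

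At 6 h the counts were close to those of 3 h. In VAL 155 members were lower (65.1%) and 21 higher (8.82%), against 32.2% and 34.0% of all genes tested and 46.9% and 27.7% of the protein-coding genes past the floor. The median change was -1.03, and 120 were at least 2-fold lower. In OCI-LY3 194 were lower (81.5%) and 12 higher (5.04%), against 33.4% and 28.1% of all genes and 50.0% and 24.0% of those past the floor. The median was -1.45, and 161 were at least 2-fold lower. Of all members 138 were lower in each of the 4 comparisons with 0 h, which share the 0 h libraries within a line, and 12 passed in none. The same counts were not made over other genes, so whether members differ from them in this was not tested.

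The deepest losses at 6 h in VAL were ZNF200, now -5.07 ± 0.22 (adjusted p = 5.53e-08), ZNF184, ZNF689 and ZNF672. ZNF672 had 60 and 59.9 untreated, 6.47 and 9.23 after 3 h, then 3.93 and 3.33 after 6 h scaled CPM in VAL, falling at each step, with a change of -4.04 ± 0.18 (adjusted p = 5.6e-08) at 6 h. ZNF184, a KRAB gene with 19 fingers, changed by -4.37 ± 0.22 (adjusted p = 7.81e-08). In OCI-LY3 the lowest were ZNF441, -4.14 ± 0.39 (adjusted p = 5.23e-06), then ZNF45, ZNF518A and ZNF212. ZNF45, a KRAB gene, had 13.2 and 12 untreated, 2.88 and 2.7 after 3 h, then 0.841 and 0.923 after 6 h there. ZNF518A had 28.1 and 26.1 untreated, 4.92 and 5.82 after 3 h, then 2.33 and 1.71 after 6 h. For both genes each 6 h library was below each 3 h library. ZNF212 changed by -3.72 ± 0.20 (adjusted p = 1.4e-07).

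Where members move together, the bases before their starts are of interest, and promoters are shown for 3 genes: ZNF14, whose mean change at 3 h over both lines (-3.98) was the lowest of the members called the same way in both, ZNF580, whose mean change (1.01) was the highest, and ZNF281 (-3.08), the lowest of the listed regulators without a KRAB or SCAN pattern. Each is the 250 bases before the start in RefSeq (GRCh38.p14), in the direction of transcription, with CpG dinucleotides in capitals. ZNF14 lies at chr19:19733113-19733362 on the minus strand, ZNF580 at chr19:55640752-55641001 on the plus strand and ZNF281 at chr1:200410037-200410286 on the minus strand. 
ZNF14: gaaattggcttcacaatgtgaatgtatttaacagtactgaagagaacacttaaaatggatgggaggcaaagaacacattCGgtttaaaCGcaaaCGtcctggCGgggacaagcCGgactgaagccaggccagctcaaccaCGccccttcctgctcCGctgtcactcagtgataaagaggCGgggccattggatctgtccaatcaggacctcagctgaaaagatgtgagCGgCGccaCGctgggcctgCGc
ZNF580: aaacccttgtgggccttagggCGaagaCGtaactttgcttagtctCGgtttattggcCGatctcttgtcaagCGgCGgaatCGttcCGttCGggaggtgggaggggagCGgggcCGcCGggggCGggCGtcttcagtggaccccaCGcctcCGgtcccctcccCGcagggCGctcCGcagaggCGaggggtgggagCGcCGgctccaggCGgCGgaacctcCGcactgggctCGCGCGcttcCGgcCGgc
ZNF281: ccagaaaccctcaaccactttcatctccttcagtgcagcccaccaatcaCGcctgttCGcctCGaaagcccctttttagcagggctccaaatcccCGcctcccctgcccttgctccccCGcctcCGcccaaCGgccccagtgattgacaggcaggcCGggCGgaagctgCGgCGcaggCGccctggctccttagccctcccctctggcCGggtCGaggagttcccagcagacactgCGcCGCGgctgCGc
They hold 12, 30 and 18 CpGs. A promoter was found for 207 of the 238 symbols, with a median of 18 CpGs in 250 bases against 22 in 6489 other protein-coding genes past the floor and 11 in all 27305 in the table. Motif letters were searched on both strands with 1 promoter per symbol. The letters CCGGAAG, the core bound by ETS factors, stood in 35.7% of member promoters, 19.3% of those of the other genes past the floor and 8.82% of all. CCAAT stood in 48.3%, 36.6% and 33.0%, the GC box GGGCGG in 61.4%, 69.2% and 42.3%, and the E-box CACGTG in 4.35%, 9.89% and 6.49%. For TATAAA the shares were 4.35%, 4.44% and 11.1%, for TGACGT 10.1%, 11.8% and 7.42%, and for ACTACAA, part of the ZNF143 site, 5.31%, 4.25% and 2.64%. These letters are counts of matches only, and the motifs may overlap each other.

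The step from 3 h to 6 h sets no 0 h library against another, although the fit behind it shares its scaling and spread with them. Some members were higher at 6 h than at 3 h and others lower. In VAL 28 were lower (11.8%) and 22 higher (9.24%), against 15.3% and 7.54% of all genes and 28.0% and 5.76% of those past the floor. In OCI-LY3 42 were lower (17.6%) and 55 higher (23.1%), against 16.3% and 12% of all genes and 27.5% and 9.29% of those past the floor. The median changes were 0.03 and 0.02. With mitochondrially encoded mRNAs held level they became -0.72 and -0.40, with 52.1% lower and 1.26% higher in VAL and 30.3% and 7.14% in OCI-LY3. A rise here is relative to the other messages.

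ZNF14 and ZNF408 were higher at 6 h than at 3 h in both lines, with either scaling. ZNF14 changed by 1.79 ± 0.26 (adjusted p = 0.000713) from 3 h to 6 h in VAL and 2.90 ± 0.25 (adjusted p = 3.41e-05) in OCI-LY3. ZNF408, a gene mutated in inherited retinal disease, had 12.3 and 12.5 untreated, 3.95 and 6.01 after 3 h, then 12.8 and 20.02 after 6 h scaled CPM in VAL and 13.6 and 13.4 untreated, 8.42 and 6.48 after 3 h, then 26.7 and 27.2 after 6 h in OCI-LY3. Against 0 h its change at 6 h was 0.40 ± 0.22 (adjusted p = 0.136) in VAL and 0.99 ± 0.22 (adjusted p = 0.00224) in OCI-LY3, which mitochondrial scaling turned to -1.76 and -0.56. The step from 3 h was 1.72 ± 0.24 (adjusted p = 0.000581) in VAL and 1.85 ± 0.23 (adjusted p = 0.000231) in OCI-LY3. ZNF92, a KRAB gene, dropped in OCI-LY3 at 3 h and was higher at 6 h: 55.1 and 56.4 untreated, 15.2 and 14.1 after 3 h, then 62.1 and 51.1 after 6 h, a step of 1.95 ± 0.21 (adjusted p = 9.53e-05), or 1.53 with mitochondrially encoded mRNAs level. Its change from 0 h to 6 h was 0.02 with TMM but -1.54 with mitochondrial scaling (adjusted p = 9.96e-07). ZNF79 too was higher at 6 h than at 3 h in both lines with either scaling. In VAL its step was 1.96 ± 0.28 (adjusted p = 0.00062), or 1.24 with mitochondrial scaling. In OCI-LY3 it was 1.35 (adjusted p = 0.00464), or 0.95 with that scaling (adjusted p = 0.0251). ZNF511, ZNF266 and ZNF688 were lower at 6 h than at 3 h in VAL, with steps of -1.64 ± 0.26, -1.60 ± 0.17 and -1.19 ± 0.25 (adjusted p = 0.00128, 0.000161 and 0.00577). In OCI-LY3 the lowest steps were those of ZNF559 (-1.75 ± 0.29), ZNF45 (-1.65 ± 0.35) and ZNF518A (-1.42 ± 0.32), with adjusted p = 0.00125, 0.00473 and 0.00689. Of the 100-base stretches of ZNF559 11.5% occur in another gene, and of ZNF511 21.5%.

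The members lower in each line overlapped. At 3 h 149 were lower in both, which is 96.1% of those lower in VAL and 76.0% of those lower in OCI-LY3, and at 6 h 150 (96.8% and 77.3%). Of all 238 members 82.4% were lower in OCI-LY3 at 3 h, so much of this overlap follows from the counts alone. Of the other protein-coding genes past the floor that were lower in VAL, 78.6% were lower in OCI-LY3 at 3 h and 80.2% at 6 h. Of all those other genes only 34.2% were lower in OCI-LY3 at 3 h and 49.0% at 6 h. The overlaps of members and of other genes thus start from unlike base shares. Across the 238 members the changes of the lines had a Pearson correlation of 0.82 at 3 h and 0.70 at 6 h, against 0.84 and 0.76 across those other genes, as a description, since the genes share libraries. ZNF37A, ZNF506 and ZNF581 passed in opposite directions at 3 h, each higher in VAL with TMM scaling (negative with mitochondrially encoded mRNAs level) and lower in OCI-LY3. At 6 h the genes with opposite calls were ZNF710, ZNF148, ZNF581 and ZNF316, higher in VAL, and ZNF121, higher in OCI-LY3, and these rises too were negative with mitochondrially encoded mRNAs level. ZNF581 had 49.5 and 47.4 untreated, 66.3 and 73.4 after 3 h, then 91.2 and 113 after 6 h scaled CPM in VAL and 48.9 and 49.1 untreated, 28.4 and 23.5 after 3 h, then 37 and 33.6 after 6 h in OCI-LY3, with no overlap between treated and untreated libraries of a line. It overlaps ZNF580 on the same strand, and 12.7% of its 100-base stretches occur in another gene. These genes, ZNF148 and ZNF710 apart, were named after their values were seen.

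**Figure D3:**
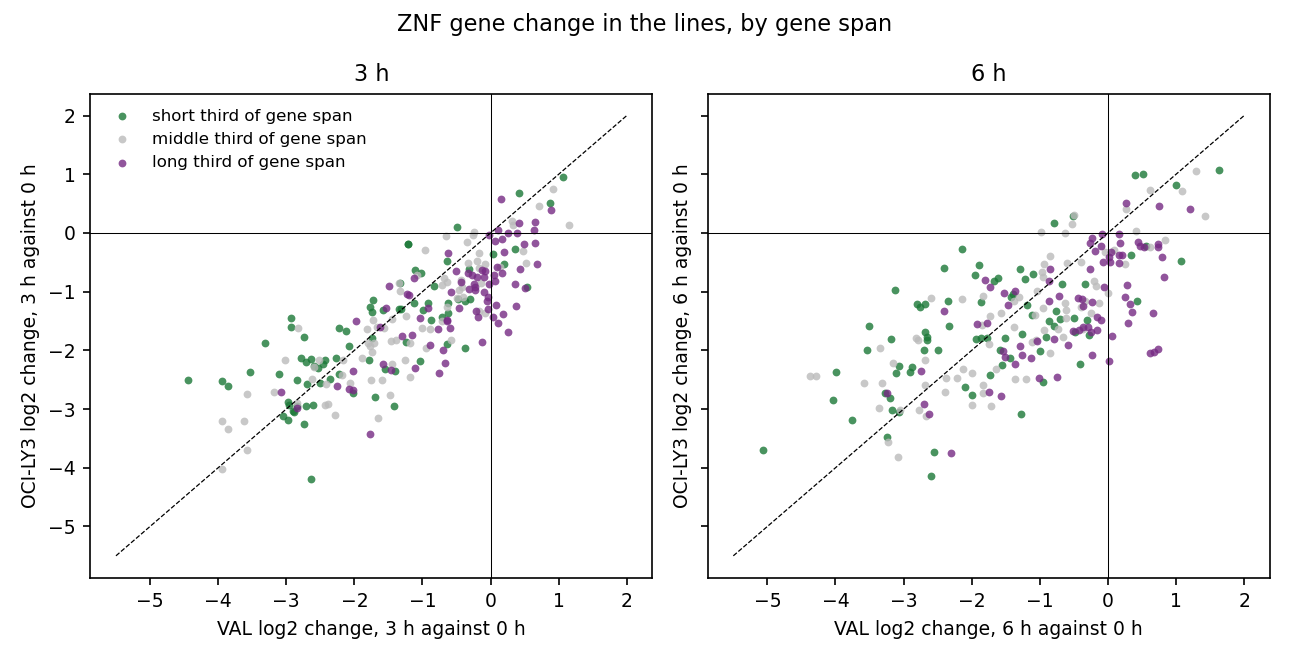
Each point is 1 of the 238 ZNF genes, with its log2 change in VAL (horizontal) and OCI-LY3 (vertical) at 3 h (left) and 6 h (right), coloured by gene span in 3 parts. The dashed line marks equal change. Many genes of long span (purple) lie below it, lower in OCI-LY3 than in VAL with TMM scaling. The median difference at 6 h was -0.35, and 0.27 with mitochondrially encoded mRNAs level.

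The difference between lines was tested as the change in OCI-LY3 minus that in VAL. At 3 h 27 members were lower in OCI-LY3 relative to VAL (11.3%) and 9 higher (3.78%), against 3.30% and 2.73% of all genes and 5.21% and 3.82% of those past the floor. At 6 h 68 were lower (28.6%) and 38 higher (16.0%), against 14.4% and 12.3% of all genes and 20.5% and 17.1% of those past the floor. The median difference was -0.34 and -0.35. This direction rests on the scaling and on single libraries: with mitochondrially encoded mRNAs level it was -0.04 and 0.27, with 0.84% of members lower at 3 h and 3.78% at 6 h. Leaving out 1 library at a time gave between 1.26% (without VAL 0 h library 1) and 36.1% (without VAL 3 h library 2) lower at 3 h and between 12.6% (without VAL 0 h library 1) and 39.5% (without VAL 6 h library 2) at 6 h.

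ZNF644, which works with the histone methyltransferases G9a and GLP, had 38.5 and 42.1 untreated, 65 and 31.4 after 3 h, then 79.7 and 43.2 after 6 h scaled CPM in VAL and 47.9 and 49.1 untreated, 14.8 and 15.2 after 3 h, then 11.6 and 11.7 after 6 h in OCI-LY3. In VAL the library numbered 1 was high and that numbered 2 near the untreated level at both times, while OCI-LY3 dropped in every treated library. The difference was -1.95 ± 0.44 (adjusted p = 0.0311) at 3 h and -2.66 ± 0.45 (adjusted p = 0.00217) at 6 h. ZNF827 (-1.74 ± 0.41, adjusted p = 0.0361) and ZNF217 (-1.66 ± 0.37, adjusted p = 0.0303) were the next lowest at 3 h. With mitochondrial scaling ZNF217 did not pass there (-1.32, adjusted p = 0.0747). At 6 h ZNF407 (-2.71 ± 0.57, adjusted p = 0.00652) and ZNF710 (-2.70 ± 0.34, adjusted p = 0.000524) stood furthest apart, and ZNF407 spans 467802 bp, the longest of the members. At 6 h ZNF407 did not pass in VAL (0.74, adjusted p = 0.104) and was lower in OCI-LY3 (-1.97, adjusted p = 0.00215). Its VAL change at 3 h, 0.19, turned negative without the treated VAL libraries numbered 1. Higher in OCI-LY3 relative to VAL were ZNF200 (1.93 ± 0.26), ZNF324 (1.48 ± 0.27) and ZNF778 (1.45 ± 0.35) at 3 h, with adjusted p = 0.00361, 0.015 and 0.038. At 6 h they were ZNF174 (2.16 ± 0.23), ZNF184 (1.94 ± 0.30) and ZNF319 (1.92 ± 0.35), with adjusted p = 0.000222, 0.0015 and 0.00335. ZNF174 and ZNF324 are among the 28 members with 5% or more shared 100-base stretches, so their counts are uncertain. ZNF174, a SCAN protein, had 10.4 and 9.83 untreated, 1.67 and 1.35 after 3 h, then 1.32 and 0.951 after 6 h in VAL and 17.8 and 16.6 untreated, 4.96 and 5.08 after 3 h, then 9.15 and 8.44 after 6 h in OCI-LY3. It fell in both lines, and in OCI-LY3 its scaled CPM was higher at 6 h than at 3 h, still below the untreated level.

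Shorter members fell further than longer ones. They were split by span into 79 short genes (up to 20373 bp), 79 middle genes and 80 long genes (over 37602 bp). In VAL at 3 h the median change was -1.74 in the short, -1.25 in the middle and -0.22 in the long genes, with 67, 57 and 31 lower. In OCI-LY3 at 3 h it was -1.87, -1.61 and -1.02, with 70, 64 and 62 lower. Other protein-coding genes past the floor, split at the same spans, had medians of -0.14, -0.10 and 0.15 in VAL and -0.03, -0.14 and -0.14 in OCI-LY3. Members were lower than other genes of like span in each part. Rank correlation between span and change across the 238 members was 0.48 in VAL at 3 h, 0.44 at 6 h, 0.29 in OCI-LY3 at 3 h and 0.15 at 6 h, as a description. Number of fingers had correlations between -0.20 and 0.00.

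**Figure D4:**
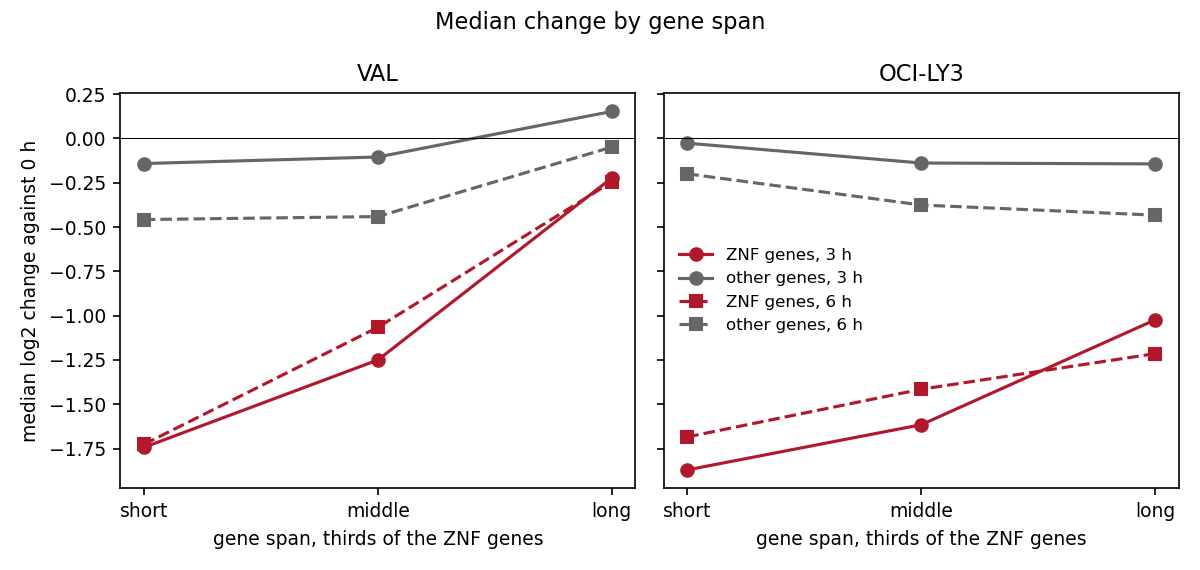
Median log2 change against 0 h (vertical) of ZNF genes (red) and other protein-coding genes past the floor (grey) in 3 parts of gene span, cut at 20373 and 37602 bp, for VAL (left) and OCI-LY3 (right). Solid lines are 3 h and dashed lines 6 h. The red lines climb from -1.74 to -0.22 in VAL at 3 h and from -1.87 to -1.02 in OCI-LY3 at 3 h.

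Calls of a difference between the lines went mostly one way among the long members and both ways among the short ones. Of the 80 long genes, 15 were lower in OCI-LY3 relative to VAL at 3 h (18.8%) and the other 65 did not pass, while of other long genes past the floor 7.66% were lower and 1.59% higher. At 6 h 36 were lower (45.0%) and 3 higher, against 31.5% and 10.9%. The 79 short members gave 5 lower (6.33%) and 7 higher (8.86%) at 3 h, and 17 (21.5%) and 23 (29.1%) at 6 h. Other short genes past the floor gave 1.73% lower and 6.11% higher at 3 h, and 8.49% and 23.5% at 6 h. The median long member, relative to 0 h, stood at -0.08 in the VAL 3 h library numbered 1 and -0.53 in that numbered 2, and at -0.11 and -0.46 at 6 h. The short members gave -1.82 and -1.95 at 3 h. In OCI-LY3 the long members gave -1.19 and -0.97 at 3 h. The labels mark VAL libraries numbered 1 as resubmitted. Without the treated VAL libraries numbered 1, 193 members were lower in VAL at 3 h, and without those numbered 2, 163 were.

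Few members rose. ZNF580, ZNF276, ZNF738 and ZNF587B were higher in all 4 comparisons with 0 h with TMM scaling, and with mitochondrially encoded mRNAs held level each was negative in all 4. ZNF587B is among the 28 members with 5% or more shared 100-base stretches, so its counts are uncertain. ZNF580 had 13.5 and 13.6 untreated, 26.5 and 30.2 after 3 h, then 37.6 and 45.7 after 6 h scaled CPM in VAL and 7.59 and 7.88 untreated, 15.3 and 14.8 after 3 h, then 15.5 and 16.9 after 6 h in OCI-LY3. Every treated library was above both untreated ones, with changes of 1.07 ± 0.13 (adjusted p = 4.86e-05) at 3 h and 1.62 ± 0.13 (adjusted p = 1.2e-06) at 6 h in VAL, which mitochondrial scaling turned to -0.33 and -0.55. ZNF276 had 6.73 and 7.13 untreated, 13.2 and 12.9 after 3 h, then 17.9 and 16.1 after 6 h in VAL and 17.7 and 16.4 untreated, 27.8 and 29.3 after 3 h, then 36.2 and 34.9 after 6 h in OCI-LY3. It changed by 0.91 ± 0.12 (adjusted p = 7.13e-05) in VAL and 0.74 ± 0.11 (adjusted p = 0.000301) in OCI-LY3 at 3 h, which mitochondrial scaling turned to -0.50 and -0.38. Its span overlaps 2 genes on the other strand, and reads from any exons that overlap cannot be told apart. ZNF117 was higher in VAL, 1.16 ± 0.30 (adjusted p = 0.0069), with 10.7 and 11.1 untreated, 31.1 and 17.5 after 3 h, then 37.5 and 20.8 after 6 h scaled CPM, and -0.31 with mitochondrial scaling. Its libraries numbered 1 were well above those numbered 2. In OCI-LY3 it had 13.1 and 13.8 untreated, 12.2 and 17.2 after 3 h, then 17 and 16 after 6 h. ZNF428 was higher in OCI-LY3, 0.67 ± 0.18 (adjusted p = 0.0128) at 3 h and 1.00 ± 0.18 (adjusted p = 0.000709) at 6 h, and -0.45 and -0.56 with mitochondrial scaling. Of all members 26 were higher with TMM in at least 1 of the 4 comparisons with 0 h. Neither this count nor that of members higher in all 4 was made over other genes.

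**Figure D5:**
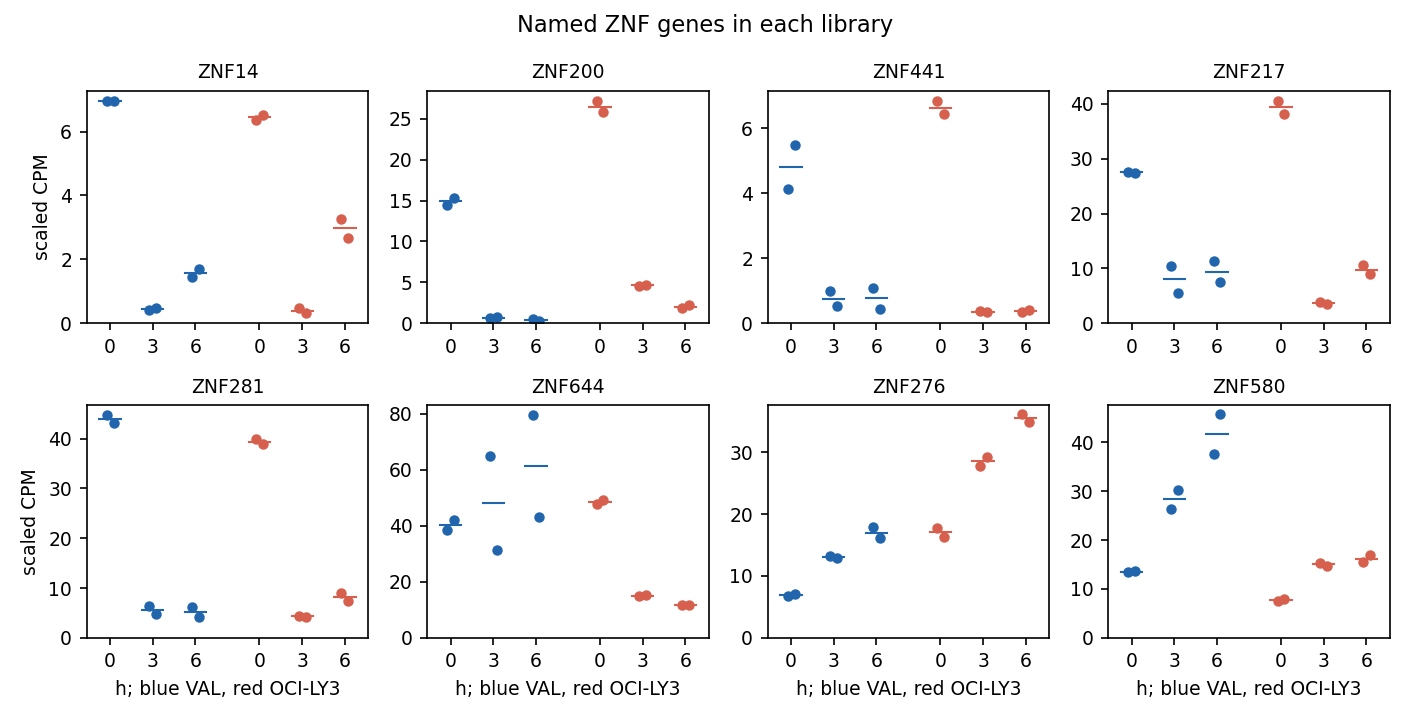
Scaled CPM (vertical axis, from 0) of 8 ZNF genes in each library at 0 h, 3 h and 6 h. Points are libraries, short lines the mean of 2, blue VAL and red OCI-LY3. ZNF14, ZNF200, ZNF441, ZNF217 and ZNF281 drop, ZNF644 drops in OCI-LY3, and ZNF276 and ZNF580 climb with TMM, a direction that scaling to mitochondrially encoded mRNAs turns.

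Members with roles outside KRAB repression were followed as a list of 21 genes, of which 19 are members and ZNF593 and ZNF410 are not. In VAL 10 of the 19 were lower and 9 did not pass at 3 h (median -0.25), and 10 were lower and 1 higher at 6 h (-0.61). In OCI-LY3 15 were lower and 4 did not pass at 3 h (-1.08), and 18 were lower and 1 did not pass at 6 h (-1.16). Of the protein-coding genes past the floor 34.8% were lower at 3 h in VAL and 46.9% at 6 h, then 35.6% at 3 h in OCI-LY3 and 50.0% at 6 h. All genes gave 25.1%, 32.2%, 24.3% and 33.4% in that order. The 10 of 19 in VAL at 6 h are near the share past the floor. Among transcription factors, ZNF281, which represses and activates genes of pluripotency and cell migration, had 44.7 and 43.2 untreated, 6.3 and 4.82 after 3 h, then 6.28 and 4.14 after 6 h scaled CPM in VAL and 39.8 and 38.8 untreated, 4.45 and 4.2 after 3 h, then 9.05 and 7.29 after 6 h in OCI-LY3. All treated libraries were well below, with changes of -2.98 ± 0.19 (adjusted p = 6.17e-07) and -3.18 ± 0.20 (adjusted p = 6.69e-07) at 3 h. ZNF143, a promoter-bound activator, had 37.9 and 37.8 untreated, 33.7 and 32.8 after 3 h, then 39.3 and 39.5 after 6 h in VAL and 20.7 and 21.5 untreated, 8.24 and 7.32 after 3 h, then 6.13 and 6.42 after 6 h in OCI-LY3. In OCI-LY3 it changed by -1.44 ± 0.11 (adjusted p = 2.29e-06) at 3 h, in VAL by -0.19 ± 0.10 (adjusted p = 0.144). The difference between lines was -1.25 ± 0.15 (adjusted p = 0.00198), or -0.99 with mitochondrial scaling, where it did not pass (adjusted p = 0.258). Its relative ZNF76 changed by -0.74 ± 0.12 (adjusted p = 0.00032) in VAL and -1.64 ± 0.13 (adjusted p = 1.43e-06) in OCI-LY3 at 6 h. ZNF148, a factor that binds GC-rich promoter elements, had 43.5 and 41.7 untreated, 78.5 and 42 after 3 h, then 90.5 and 60.6 after 6 h scaled CPM in VAL. Its libraries numbered 1 were above those numbered 2, and the change at 6 h was 0.83 ± 0.26 (adjusted p = 0.0145), or -1.38 with mitochondrial scaling. In OCI-LY3 it was -0.75 ± 0.26 (adjusted p = 0.0268). ZNF384, which is fused to other genes in some B-cell leukaemias, changed by -1.08 ± 0.15 (adjusted p = 0.00021) in OCI-LY3 at 3 h and -0.41 ± 0.15 (adjusted p = 0.037) in VAL.

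The other listed members, with roles on ribosomes, RNA or chromatin among others, differed among themselves. ZNF622, a factor of the large ribosomal subunit, had 32.2 and 31.4 untreated, 4.05 and 5.69 after 3 h, then 8.17 and 15.8 after 6 h scaled CPM in VAL and 25.3 and 27.7 untreated, 6.38 and 5.18 after 3 h, then 12.7 and 12.2 after 6 h in OCI-LY3. It was lowest at 3 h and rose from there, by 1.29 ± 0.27 (adjusted p = 0.00567) in VAL and 1.10 ± 0.27 (adjusted p = 0.0102) in OCI-LY3, or 0.53 and 0.70 with mitochondrial scaling, where neither passed. ZNF598, the ubiquitin ligase that senses collided ribosomes, changed by -0.63 ± 0.13 (adjusted p = 0.00221) in VAL and -0.48 ± 0.13 (adjusted p = 0.0126) in OCI-LY3 at 3 h. ZNF207 had 258 and 252 untreated, 197 and 231 after 3 h, then 129.8 and 136 after 6 h in VAL and 242 and 251 untreated, 241 and 243 after 3 h, then 169.5 and 173 after 6 h in OCI-LY3, where the 3 h libraries were close to the untreated ones (-0.03 ± 0.10, adjusted p = 0.847) and the 6 h ones lay below. ZNF326, which links elongation and splicing, changed by 0.16 ± 0.10 and -0.11 ± 0.10 at 3 h (adjusted p = 0.182 and 0.4), and by -0.30 ± 0.10 (adjusted p = 0.0182) in OCI-LY3 at 6 h. ZNF638, which silences unintegrated viral DNA, and ZNF335, part of a histone methyltransferase complex, passed at 6 h in OCI-LY3 with -0.50 ± 0.17 and -0.52 ± 0.10 (adjusted p = 0.0247 and 0.00115). ZNF346, which binds double-stranded RNA, changed by -1.69 ± 0.14 (adjusted p = 2.1e-06) in OCI-LY3 at 6 h. ZNF687 and ZNF592, partners of the chromatin reader ZMYND8, changed by -1.55 ± 0.13 and -1.12 ± 0.13 in VAL and -2.32 ± 0.14 and -0.77 ± 0.13 in OCI-LY3 at 3 h, all past the threshold. ZNF451, a SUMO ligase, and ZNF292 changed by -1.01 ± 0.22 and -1.16 ± 0.37 in OCI-LY3 at 3 h (adjusted p = 0.00391 and 0.0279) and did not pass in VAL.

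KRAB and repeat-binding genes that are much studied were followed as a list of 9, of which 7 are members and ZNF10 and ZNF93 are not. Of the 7, 6 were lower in VAL at 3 h and 5 at 6 h, and in OCI-LY3 7 at 3 h and 6 at 6 h. The others did not pass. The shares of protein-coding genes past the floor for these are those given for the list before, from 34.8% to 50.0%. ZNF274, which brings SETDB1 to the ends of ZNF genes, had 8.28 and 8.81 untreated, 1.53 and 1.67 after 3 h, then 1.25 and 0.761 after 6 h scaled CPM in VAL and 17.2 and 16.4 untreated, 2.7 and 2.94 after 3 h, then 2.18 and 1.98 after 6 h in OCI-LY3. All treated libraries were below, with changes of -2.41 ± 0.18 (adjusted p = 1.65e-06) and -2.58 ± 0.17 (adjusted p = 9.09e-07) at 3 h. ZNF202, a SCAN gene known as a repressor of lipid genes, changed by -2.61 ± 0.16 and -2.93 ± 0.17 at 3 h, and ZNF263 by -2.59 ± 0.12 and -2.28 ± 0.11 (all past the threshold). ZNF263 came back in VAL from 3 h to 6 h by 1.22 ± 0.12 (adjusted p = 8.74e-05), or 0.45 with mitochondrial scaling, where it did not pass. ZNF445, which guards imprinted loci, changed by -1.26 ± 0.21 in VAL and -2.08 ± 0.23 in OCI-LY3 at 6 h (adjusted p = 0.000377 and 1.64e-05). ZNF765, which binds LINE-1 elements, changed by -1.11 ± 0.19 and -2.30 ± 0.20 at 3 h. ZNF91, which silences SVA and LINE-1 elements, had 12.3 and 12.9 untreated, 13.2 and 9.91 after 3 h, then 12.9 and 11.1 after 6 h in VAL, where it did not pass, and 7.07 and 6.82 untreated, 4.05 and 4.87 after 3 h, then 5.39 and 4.53 after 6 h in OCI-LY3, where it was -0.64 ± 0.17 (adjusted p = 0.0128) at 3 h. With TMM scaling ZNF267 stood at -0.08 ± 0.21 in OCI-LY3 at 6 h after -1.50 ± 0.22 at 3 h. With mitochondrially encoded mRNAs level, the median change of all genes there moves from -0.01 to -1.55 at 6 h. A return to the untreated level thus holds only relative to the other messages.

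The partners through which KRAB proteins act were counted beside the members. Of 20 listed co-repressors, 3 were lower and 8 higher in VAL at 3 h, 6 and 6 at 6 h, and in OCI-LY3 5 and 4 at 3 h and 9 and 6 at 6 h, whereas with mitochondrially encoded mRNAs level 18 to 20 were lower in each comparison and the others did not pass. The shares of all genes tested were 25.1% lower against 29.6% higher in VAL at 3 h, 32.2% against 34.0% at 6 h, then 24.3% against 17.8% in OCI-LY3 at 3 h and 33.4% against 28.1% at 6 h. No difference of the list from these shares was tested. With TMM scaling TRIM28, the scaffold itself, had 777 and 785 untreated, 717 and 966 after 3 h, then 529.9 and 775 after 6 h scaled CPM in VAL and 789 and 789.9 untreated, 929 and 919 after 3 h, then 954 and 1001 after 6 h in OCI-LY3 and did not pass in any comparison with 0 h. SMARCAD1, a remodeller of heterochromatin, had the smallest adjusted p in OCI-LY3 at 6 h: 51.5 and 54.9 untreated, 26.7 and 28 after 3 h, then 12.8 and 12.1 after 6 h in VAL and 45.5 and 45.1 untreated, 21.8 and 24.8 after 3 h, then 7.62 and 6.77 after 6 h in OCI-LY3, changes of -2.10 ± 0.12 and -2.66 ± 0.12 at 6 h (adjusted p = 1.28e-07 and 7.93e-08). UHRF1, which recruits DNMT1, changed by -1.21 ± 0.11 and -1.63 ± 0.11 at 6 h (adjusted p = 2.59e-06 and 4.99e-07). HDAC1 and CHD3, of the NuRD complex, were higher in VAL at 6 h with 1.19 ± 0.09 and 1.33 ± 0.11 (adjusted p = 1.22e-06 and 1.4e-06), which mitochondrial scaling turned to -0.99 and -0.85. The listed HDAC2 and CHD4, of the same complex, did not rise there with TMM. HDAC2 was lower, -0.47 ± 0.14 (adjusted p = 0.00987), and CHD4 did not pass, -0.06 ± 0.11 (adjusted p = 0.647). SETDB1, named like TRIM28, HDAC2 and CHD4 after its values were seen, was lower in all 4 comparisons, between -0.88 and -1.47.

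Members were counted by domain group at 3 h, where 25.1% of all genes and 34.8% of those past the floor were lower in VAL, and 24.3% and 35.6% in OCI-LY3. Of the 123 with a KRAB pattern 84 were lower and 6 higher in VAL at 3 h, and 106 and 3 in OCI-LY3. Of the 16 with a SCAN pattern 13 were lower in VAL and 14 in OCI-LY3, and the others did not pass. Of the 105 with neither, 62 and 81 were lower and 7 and 3 higher. On chromosome 19, 68 of 95 were lower in VAL and 82 in OCI-LY3 at 3 h, and elsewhere 87 and 114 of 143. Among the 28 members with 5% or more shared stretches, 18 and 20 were lower, and among the other 210, 137 and 176. Related zinc-finger families past the same floor were counted in the same way for genes lower at 3 h: 11 of 11 ZFP genes in VAL and 9 in OCI-LY3, 18 and 20 of 30 ZBTB genes, 2 and 2 of 4 ZSCAN and 3 and 5 of 5 ZKSCAN genes.

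Calls were also counted with a change of at least 2-fold required. For VAL at 3 h against 0 h 122 members were lower and 2 higher, against 15.9% and 11.9% of all genes and 19.5% and 3.69% of those past the floor. In VAL at 6 h against 0 h 120 members were lower and 6 higher, against 22.1% and 21.4% of all genes and 29.8% and 9.36% of those past the floor. For OCI-LY3 at 3 h against 0 h 156 members were lower and none reached 2-fold higher (highest change 0.96), against 14.2% and 6.64% of all genes and 18.7% and 0.388% of those past the floor. In OCI-LY3 at 6 h against 0 h 161 members were lower and 2 higher, against 21.8% and 15.3% of all genes and 30.5% and 3.69% of those past the floor. For VAL at 6 h against 3 h 9 members were lower and 8 higher, against 4.07% and 4.23% of all genes and 7.05% and 1.20% of those past the floor. In OCI-LY3 at 6 h against 3 h 15 members were lower and 26 higher, against 4.70% and 7.70% of all genes and 6.80% and 2.78% of those past the floor. For the difference between lines at 3 h 21 members were lower and 7 higher, against 1.74% and 1.93% of all genes and 2.27% and 2.29% of those past the floor. For the difference between lines at 6 h 44 members were lower and 24 higher, against 8.98% and 7.72% of all genes and 10.9% and 8.28% of those past the floor.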

How the data were processed

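RNA-seq was read from 12 libraries, 2 for each of 6 groups of line and time. The deposited count table holds raw counts per gene that the authors made from reads on GRCh38, per the submitters' processing notes. Which aligner and counter they used is not given in the sources used here. The authors also deposited values on a log2 scale made with DESeq2, per the submitters' processing notes, which served only as an alternative. Columns were matched to samples by the labels, and 0 other sample columns were present.

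From the counts, genes were filtered with filterByExpr and scaled by TMM, and one model with 6 groups was fitted across 16374 genes with edgeR 4.0.16 (R 4.3.3) and its quasi-likelihood test, with Benjamini-Hochberg adjustment over all of them. A call is an adjusted p under 0.05. Standard errors are the log2 change over the square root of F. limma 3.58.1 and DESeq2 1.42.0 gave alternatives. Tables and figures used pandas 2.3.3, numpy 2.4.6, scipy 1.17.1 and matplotlib 3.10.9. The scripts were tested on simulated data. Total counts of 23175082 to 39715536 set the precision, where a floor of 3 counts covers counting error only.

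Gene spans, exons, overlaps and finger, KRAB and SCAN patterns come from GENCODE 29, and promoters from RefSeq GRCh38.p14. Protein sequences are not printed. Promoters, chosen by the rule given with them, stand in their place. The members and all gene lists were chosen with earlier results of these data known. One gene of the marker lists is not reported here. Named genes are, among members, the 4 lowest and 3 highest called changes against 0 h with libraries that do not overlap, the 3 lowest and 3 highest called from 3 h to 6 h and between lines, the listed genes, and up to 4 co-repressors by smallest adjusted p. Alternatives were other scalings, filters, tests, member rules, each line alone, a replicate block and leaving out each library.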

Additional observations from a re-analysis of the deposited data

Results flagged for a closer look

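Of the 53 named members, those whose change with AZ5576 differed between the lines by the interaction term of edgeR's quasi-likelihood test (adjusted p under 0.05) are given with the log2 change in OCI-LY3 minus that in VAL. At 3 h, among the named members, the change in OCI-LY3 was lower than that in VAL for ZNF644 (-1.95), ZNF827 (-1.74), ZNF217 (-1.66), ZNF710 (-1.62), ZNF148 (-1.44), ZNF143 (-1.25), ZNF765 (-1.19), ZNF346 (-0.81) and ZNF687 (-0.77). The change in OCI-LY3 was higher at 3 h for ZNF174 (0.96), ZNF672 (1.34), ZNF319 (1.43), ZNF778 (1.45), ZNF324 (1.48) and ZNF200 (1.93). At 6 h, among the named members, the change in OCI-LY3 was lower than that in VAL for ZNF407 (-2.71), ZNF710 (-2.70), ZNF644 (-2.66), ZNF827 (-1.84), ZNF143 (-1.81), ZNF148 (-1.58), ZNF451 (-1.52), ZNF518A (-1.45), ZNF346 (-1.43), ZNF212 (-1.17), ZNF263 (-1.12), ZNF76 (-0.90), ZNF384 (-0.82), ZNF687 (-0.64) and ZNF580 (-0.56). The change in OCI-LY3 was higher at 6 h for ZNF207 (0.41), ZNF266 (0.77), ZNF281 (0.80), ZNF592 (0.80), ZNF92 (1.01), ZNF14 (1.03), ZNF778 (1.18), ZNF672 (1.20), ZNF200 (1.38), ZNF324 (1.48), ZNF688 (1.82), ZNF689 (1.85), ZNF511 (1.85), ZNF319 (1.92), ZNF184 (1.94) and ZNF174 (2.16). The difference was tested in each case with 2 libraries per group. With mitochondrially encoded mRNAs held level the share of members lower in OCI-LY3 fell from 11.3% to 0.84% at 3 h and from 28.6% to 3.78% at 6 h.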

How the results depend on the processing

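The shares of members lower than at 0 h stayed within 1.5 times of the reported ones under each alternative run, other than in VAL with mitochondrially encoded mRNAs level. In OCI-LY3, at 82.4% and 81.5%, a rise to all members would still lie within 1.5 times, so this rule could not flag one. With that scaling the members' median there went from -1.445 to -2.564 at 3 h and from -1.452 to -3.005 at 6 h. Shares that moved by more follow, and the cause was not tested. With mitochondrially encoded mRNAs held level the share lower was 97.9% in VAL at 3 h, 99.6% in VAL at 6 h, 52.1% in VAL from 3 h to 6 h, 30.3% in OCI-LY3 from 3 h to 6 h, 0.84% for the line difference at 3 h and 3.78% for the line difference at 6 h, while the share higher was 0% in VAL at 3 h, 0% in VAL at 6 h, 0% in OCI-LY3 at 3 h, 0% in OCI-LY3 at 6 h, 1.26% in VAL from 3 h to 6 h and 7.14% in OCI-LY3 from 3 h to 6 h. With ribosomal protein mRNAs held level the share lower was 25.6% in VAL from 3 h to 6 h, 27.7% in OCI-LY3 from 3 h to 6 h, 1.26% for the line difference at 3 h and 5.04% for the line difference at 6 h, while the share higher was 0% in VAL at 3 h, 0% in VAL at 6 h, 0% in OCI-LY3 at 3 h, 0% in OCI-LY3 at 6 h, 3.36% in VAL from 3 h to 6 h and 7.56% in OCI-LY3 from 3 h to 6 h. With total counts as the only scaling the share lower was 18.5% in VAL from 3 h to 6 h, 2.94% for the line difference at 3 h and 17.2% for the line difference at 6 h, while the share higher was 1.68% in VAL at 3 h, 2.94% in VAL at 6 h, 1.26% in OCI-LY3 at 3 h and 2.1% in OCI-LY3 at 6 h. Without the treated VAL libraries numbered 2, chosen after seeing the data, the share lower was 48.7% for the line difference at 3 h and 49.6% for the line difference at 6 h, while the share higher was 18.9% in VAL at 3 h, 16.4% in VAL at 6 h and 14.3% for the line difference at 3 h. With each line fitted alone the share lower was 3.36% in VAL from 3 h to 6 h and 28.6% in OCI-LY3 from 3 h to 6 h, while the share higher was 2.94% in VAL at 3 h, 5.46% in VAL at 6 h and 3.78% in VAL from 3 h to 6 h. With members chosen by the mean of all libraries the share higher was 8.74% in VAL at 3 h. With at least 2-fold required the share lower was 3.78% in VAL from 3 h to 6 h, 6.3% in OCI-LY3 from 3 h to 6 h and 18.5% for the line difference at 6 h, while the share higher was 0.84% in VAL at 3 h, 2.52% in VAL at 6 h, 0% in OCI-LY3 at 3 h, 0.84% in OCI-LY3 at 6 h, 3.36% in VAL from 3 h to 6 h, 10.9% in OCI-LY3 from 3 h to 6 h and 10.1% for the line difference at 6 h. Over every ZNF gene tested the share lower was 11.6% in OCI-LY3 from 3 h to 6 h, while the share higher was 9.2% in OCI-LY3 at 6 h. With limma-voom and group weights, chosen after seeing the data, the share lower was 2.94% in VAL from 3 h to 6 h and 19.3% for the line difference at 3 h, while the share higher was 2.1% in VAL from 3 h to 6 h. Without the treated VAL libraries numbered 1, chosen after seeing the data, the share lower was 18.1% in VAL from 3 h to 6 h and 25.2% for the line difference at 3 h, while the share higher was 17.2% in VAL from 3 h to 6 h and 7.56% for the line difference at 3 h. With no filter on low counts the share higher was 6.72% for the line difference at 3 h. With DESeq2 Wald test the share higher was 6.3% for the line difference at 3 h.

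Leaving out 1 library at a time gave 62.2 to 70.6% lower and 2.1 to 9.66% higher in VAL at 3 h, 63 to 70.2% lower and 4.62 to 11.3% higher in VAL at 6 h, 73.5 to 87% lower and 1.26 to 2.94% higher in OCI-LY3 at 3 h, 76.1 to 83.2% lower and 3.78 to 5.04% higher in OCI-LY3 at 6 h, 7.14 to 16% lower and 7.98 to 16.4% higher in VAL from 3 h to 6 h, 10.9 to 21% lower and 11.3 to 25.6% higher in OCI-LY3 from 3 h to 6 h, 1.26 to 36.1% lower and 1.26 to 8.4% higher for the line difference at 3 h and 12.6 to 39.5% lower and 9.24 to 18.5% higher for the line difference at 6 h. Omitting these libraries moved a share by over 1.5 times. In VAL at 3 h the share higher moved without VAL 0 h library 1 (2.94%), VAL 0 h library 2 (2.1%), VAL 3 h library 2 (9.66%), OCI-LY3 0 h library 1 (3.36%) and OCI-LY3 0 h library 2 (3.36%). In VAL at 6 h the share higher moved without VAL 0 h library 1 (4.62%) and VAL 0 h library 2 (5.46%). In OCI-LY3 at 3 h the share higher moved without OCI-LY3 3 h library 1 (1.26%). In VAL from 3 h to 6 h the share lower moved without VAL 0 h library 1 (7.14%), VAL 0 h library 2 (7.14%), OCI-LY3 0 h library 1 (7.14%) and OCI-LY3 0 h library 2 (7.14%). In VAL from 3 h to 6 h the share higher moved without VAL 3 h library 1 (16.4%). In OCI-LY3 from 3 h to 6 h the share lower moved without OCI-LY3 6 h library 1 (10.9%) and OCI-LY3 6 h library 2 (10.9%). In OCI-LY3 from 3 h to 6 h the share higher moved without OCI-LY3 3 h library 1 (15.1%), OCI-LY3 3 h library 2 (14.3%) and OCI-LY3 6 h library 1 (11.3%). The line difference at 3 h had a share lower that moved without any 1 of the 12 libraries. The line difference at 3 h had a share higher that moved without any 1 library other than VAL 3 h library 1. The line difference at 6 h had a share lower that moved without VAL 0 h library 1 (12.6%), VAL 0 h library 2 (14.7%), OCI-LY3 0 h library 1 (13.9%), OCI-LY3 0 h library 2 (13.9%), OCI-LY3 6 h library 1 (17.2%) and OCI-LY3 6 h library 2 (15.5%). The line difference at 6 h had a share higher that moved without OCI-LY3 6 h library 1 (9.24%).

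Of 5664 pairs of a named gene's change and an alternative, 5203 kept direction and call, 79 changed sign without passing in either fit, 175 lost the call, 148 gained it and 59 turned direction with a call in at least one of the fits. They cover 236 changes of 53 genes. With mitochondrially encoded mRNAs level the direction turned for ZNF117 (-0.96), ZNF276 (-0.38), ZNF335 (-1.12), ZNF428 (-0.45), ZNF511 (-1.04) and ZNF580 (-0.17) in OCI-LY3 at 3 h, and ZNF117 (-1.27), ZNF276 (-0.50), ZNF408 (-0.56), ZNF428 (-0.56), ZNF580 (-0.49) and ZNF92 (-1.54) in OCI-LY3 at 6 h, and ZNF117 (-0.31), ZNF148 (-0.97), ZNF276 (-0.50), ZNF326 (-1.26), ZNF407 (-1.32), ZNF428 (-0.96), ZNF580 (-0.33), ZNF638 (-1.05), ZNF644 (-1.23) and ZNF710 (-1.07) in VAL at 3 h, and ZNF117 (-0.80), ZNF143 (-2.12), ZNF148 (-1.38), ZNF276 (-0.90), ZNF292 (-1.94), ZNF407 (-1.49), ZNF408 (-1.76), ZNF428 (-1.64), ZNF451 (-1.88), ZNF580 (-0.55), ZNF638 (-2.18), ZNF644 (-1.61) and ZNF710 (-1.54) in VAL at 6 h, and the members' median (0.27) for the line difference at 6 h. With ribosomal protein mRNAs level the direction turned for ZNF143 (-1.29), ZNF148 (-0.48), ZNF276 (-0.041), ZNF408 (-0.99), ZNF428 (-0.87), ZNF451 (-1.0), ZNF638 (-1.28) and ZNF710 (-0.63) in VAL at 6 h, and ZNF276 (-0.067), ZNF408 (-0.13), ZNF428 (-0.13), ZNF580 (-0.059) and ZNF92 (-1.10) in OCI-LY3 at 6 h, and ZNF326 (-0.68) and ZNF428 (-0.46) in VAL at 3 h, and ZNF335 (-0.69), ZNF428 (-0.016) and ZNF511 (-0.60) in OCI-LY3 at 3 h. With total counts as the only scaling the direction turned for ZNF143 (-0.43) in VAL at 6 h. Without the treated VAL libraries numbered 2, chosen after seeing the data, the direction turned for ZNF292 (0.46) and ZNF451 (0.23) in VAL at 3 h. Without the treated VAL libraries numbered 1, chosen after seeing the data, the direction turned for ZNF407 (-0.65) and ZNF644 (-0.36) in VAL at 3 h, and ZNF638 (-0.28) in VAL at 6 h.

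Same-numbered libraries deviated together between 3 h and 6 h in VAL, with a correlation of deviations of 0.40, while 0 h against 3 h and 6 h gave -0.03 and -0.04, and OCI-LY3 gave -0.02, 0.02 and 0.05. The main fit did not pair libraries by number, as the labels do not say that a number marks a shared culture. It thus leaves out the tie seen between same-numbered VAL libraries of 3 h and 6 h. With the replicate block the share lower was 21.8% for the line difference at 3 h, against 11.3% without it. The share higher in VAL at 3 h was 8.4%, against 5.46% without it. With the replicate block 228 named changes kept their call and 8 gained one. Depth limits low members most, with 6 to 10 counts for the lowest member in treated libraries.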
